A study of Mus musculus with 12 samples.

Results

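The genes examined were Il12rb1 and Il12rb2, which encode the chains of the IL-12 receptor, Il18r1 and Il18rap, which encode the chains of the IL-18 receptor, and Il1rl1, which encodes the IL-33 receptor ST2 and lies next to Il18r1. They are 5 of the 21887 protein-coding genes considered. Every deposited ATAC-seq interval within 50 kb of their gene bodies (mm10) was taken as a member, which gave 820 of 603679 intervals summed over 12 lists. ATAC-seq marks accessible DNA, because a transposase inserts sequencing adapters where chromatin is open. The cells were natural killer (NK) cells from mouse spleen. They were wild type (WT, the floxed Reg-1fl/fl genotype in the series' design text) or knockout (KO, Reg-1ΔNK, in which NK cells lack Regnase-1). Each genotype was kept as control (Ctl) or given both cytokines, IL-12 with IL-18 (Sti), and each of the 4 groups had 3 libraries. The driver of the deletion, the ages of the mice, the dose and the length of stimulation are not given in the sources used here. The labels also leave unsaid whether the 3 libraries of a group came from separate mice, so a p-value measures only the spread between these libraries, which may be technical. In bulk samples, a region open in fewer cells and a region less open in each cell cannot be told apart.

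IL-12 binds a receptor of IL-12Rβ1 and IL-12Rβ2 and signals through JAK2, TYK2 and STAT4. IL-18 binds IL-18Rα, the product of Il18r1, and recruits IL-18Rβ, the product of Il18rap, which signals through MyD88 and IRAK kinases to NF-kB. NK cells carry both receptors before activation, and the 2 cytokines together drive interferon gamma production. ST2 is best known from type 2 innate lymphocytes, mast cells and regulatory T cells. Regnase-1, encoded by Zc3h12a, cuts the messenger RNAs of many cytokine and inflammatory genes and so limits their level.

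The deposited lists held 35110 to 63128 intervals, so each list was reduced to intervals with a rank of at most 35110, as many as the shortest list held, ranked on the deposited −log10 q. Tied ranks made the reduced lists 34748 to 35427 intervals long. A region is a stretch joined from overlapping intervals that at least 2 libraries called, and 58 of 44960 regions lay in the receptor windows. Of the 58, 29 had a receptor gene as their nearest gene (9 at Il12rb2, 7 at Il18r1, 6 at Il1rl1, 5 at Il18rap and 2 at Il12rb1), and 29 were nearest to another gene. The rank score is log2 of that common rank limit plus 1 over the rank of the strongest interval in a region. It is 0 where a library had no interval in its reduced list, and a rise of 1 means a rank number 0.5 times as large. As a check of the labels, a region at one end of Zc3h12a (chr4:125117670-125118634) was deposited in 6 of 6 WT and 0 of 6 KO libraries. Regions were present at all 9 NK marker genes, 54 in total. Of the other marker lists, 2 of 6 B cell genes had regions (Pax5 with 6 and Ebf1 with 7), as did 3 of 7 T cell genes (Cd5 with 4, Cd3d and Cd3e with 1 each) and 3 of 6 myeloid genes (Itgam with 5, Spi1 with 3, Adgre1 with 1). Ms4a1, Cd79a and Cd79b of B cells, Cd3g, Cd4, Cd8a and Cd8b1 of T cells and Csf1r, Lyz2 and Cd68 of myeloid cells had none. The 3 KO stimulated libraries stood apart from each other: the rank scores of a library correlated with the others of its group at a mean r of 0.878, 0.927 and 0.931 in KO stimulated replicates 1, 2 and 3 and of 0.974 to 0.989 elsewhere. The shortest list was that of KO stimulated replicate 1.

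IL-12/18 moved regions at the receptor genes in both directions. Over both genotypes, 14 of the 58 regions rose and 12 fell (limma on rank scores, Benjamini-Hochberg adjusted over all 44960 regions), while 22.0% of all regions rose and 26.4% fell. The share of the 58 that passed in either direction, 44.8%, was near that of all regions, 48.4%. Among the 29 regions nearest a receptor gene, 10 rose, 6 fell and 13 did not pass the test. The median difference was 0.03 at these 29 regions and -0.05 over all regions. By gene, the regions that rose were 5 of 6 at Il1rl1, 2 of 5 at Il18rap, 2 of 9 at Il12rb2, 1 of 7 at Il18r1 and 0 of 2 at Il12rb1. Those that fell were 0 at Il1rl1, 2 at Il18rap, 2 at Il12rb2, 1 at Il18r1 and 1 at Il12rb1. In WT cells alone, 9 of the 29 rose and 5 fell (18.1% and 18.9% of all regions). In KO cells alone, 8 rose and 3 fell (14.7% and 16.7% of all regions). In 8 of the 29, all 6 stimulated libraries lay above all 6 control libraries, and in 3 they lay below, which held for 11.5% and 12.6% of all regions.

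**Figure D1:**
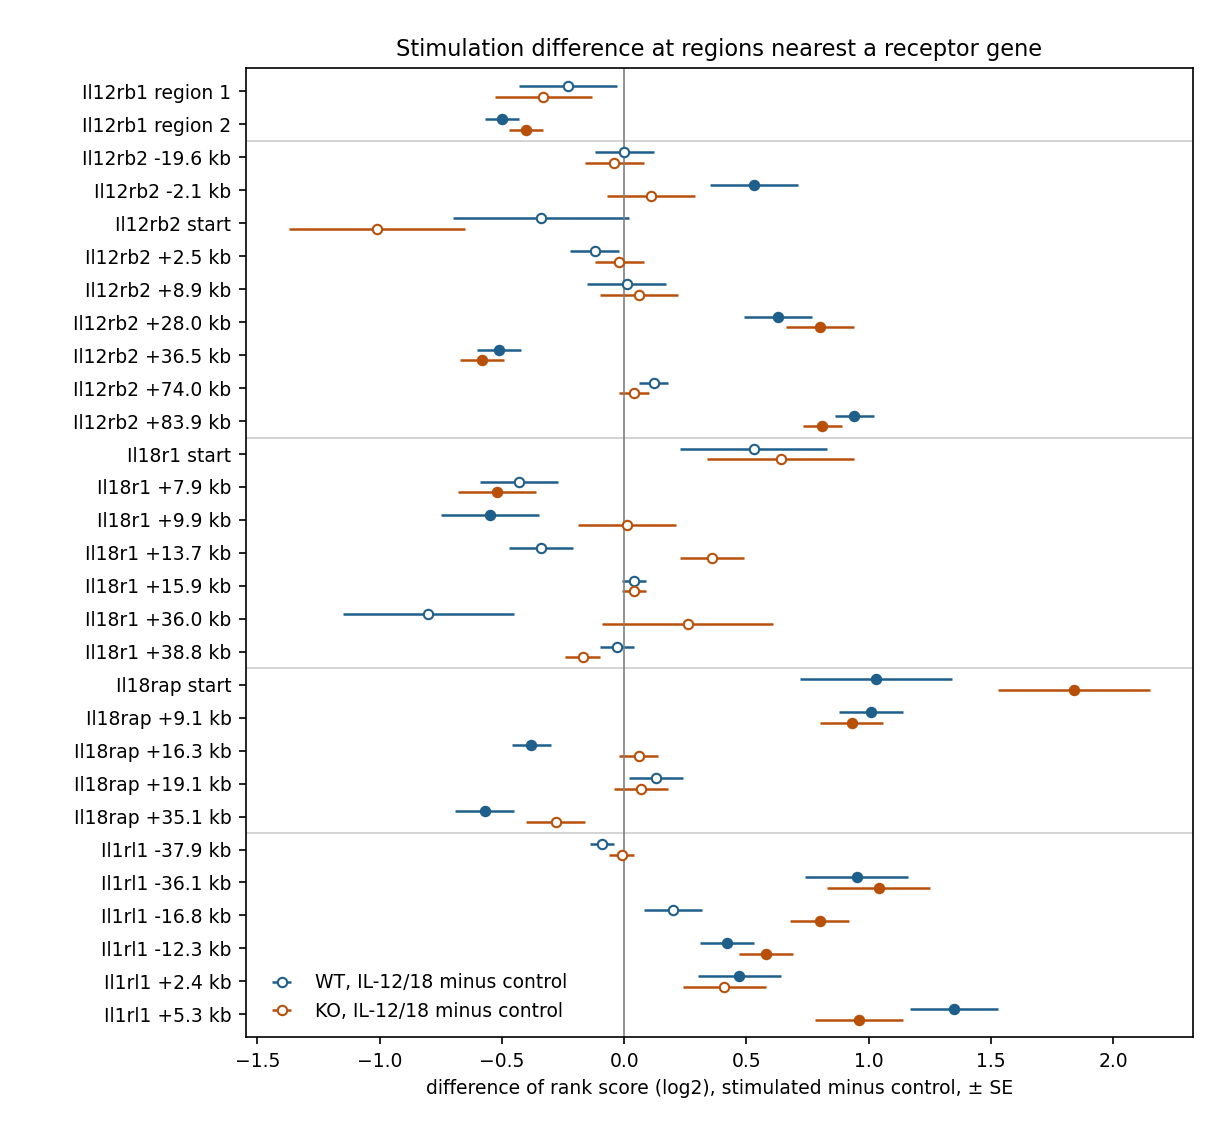
Stimulated minus control difference of the rank score (log2, x axis, ± SE, 3 libraries a group) at the 29 regions nearest a receptor gene, in WT (blue) and KO (orange), ordered along each gene and named by the distance of their median summit from the nearest annotated start site (the 2 at Il12rb1 are numbered). Filled points have an adjusted p under 0.05, and both Il18rap regions nearest the start and the regions of Il1rl1 other than the farthest upstream lie to the right of 0.

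At Il12rb1, the chain shared with the IL-23 receptor, the larger of 2 regions was a broad one of 9361 bp over the lower end of the gene (chr8:70803643-70813003). Its best rank was 7127, 6184 and 6094 in WT control, 8901, 6236 and 7874 in WT stimulated, 5986, 6378 and 7116 in KO control and 10886, 6408 and 7690 in KO stimulated libraries. The groups overlapped, and the stimulation difference of -0.28 ± 0.14 (SE) did not pass the test (adjusted p = 0.124). The stretch was split into 3 intervals in each KO stimulated library and into 1 or 2 in each of the other 9. The second region (chr8:70819850-70822267), named after its values were seen, lay inside the gene toward the other end. It had ranks of 24094, 22568 and 24106 in WT control, 35144, 31748 and 33106 in WT stimulated and 25721, 26391 and 24880 in KO control libraries. KO stimulated replicate 1 had no interval there, and the other two had ranks of 34262 and 32236. All 6 stimulated libraries were below all 6 control libraries, and the rank score fell by 0.45 ± 0.05 (SE, adjusted p = 1.09e-05). The difference was -0.50 in WT (adjusted p = 0.000128) and -0.40 in KO (adjusted p = 0.000873).

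Il12rb2 encodes the signalling chain that recruits STAT4. Its promoter is shown because the strongest summit of the start-site region lay within it in all 12 libraries. The sequence is 300 bases of RefSeq, GRCm38.p6, chr6:67376139-67376438, minus strand. Capitals mark a STAT-type match (TTCNNNGAA) that begins at -123 from the start site and an NF-kB-type match (GGG, NN, TT, N, CC) that begins at -1.
Il12rb2: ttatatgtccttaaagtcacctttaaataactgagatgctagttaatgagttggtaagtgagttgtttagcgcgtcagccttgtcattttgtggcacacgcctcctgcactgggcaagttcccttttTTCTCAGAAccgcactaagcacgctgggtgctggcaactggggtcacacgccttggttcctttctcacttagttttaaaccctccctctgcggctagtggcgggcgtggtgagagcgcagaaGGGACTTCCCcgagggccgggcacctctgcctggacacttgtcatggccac
On either strand, the STAT motif occurred in 8.3% and the NF-kB motif in 4.79% of 32851 promoters of that length. These are letter matches and not measured binding.

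The start-site region of Il12rb2 (chr6:67374556-67376870) had the highest mean rank score of the 29 receptor regions in WT control cells (3.48 ± 0.14, SD, n = 3). Its rank was 3030, 3510 and 2924 in WT control, 3148, 5084 and 3956 in WT stimulated, 1970, 2145 and 2156 in KO control and 8720, 2550 and 3374 in KO stimulated libraries. The highest ranks were those of resting KO cells, and KO stimulated replicate 1 was far below its group. Summits stayed at 33 bases inside to 21 bases before the start site. The stimulation difference was -0.68 ± 0.26 (SE, adjusted p = 0.0449). It lost its call without any of the WT or KO control libraries or WT stimulated replicate 2 or 3, with adjusted p up to 0.109 (-0.59, without WT stimulated replicate 2). The size rested on KO stimulated replicate 1, without which it was -0.42. KO minus WT was 0.25 ± 0.26 (adjusted p = 0.617), and 0.52 (adjusted p = 0.0302) without KO stimulated replicate 1.

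Inside Il12rb2, stimulation moved regions both up and down. The region near the far end of the gene (chr6:67291489-67293231), with summits 83832 to 84040 bases downstream of the start site, had ranks of 37532, 34366 and 33900 in WT control, 18196, 18288 and 17386 in WT stimulated, 32667, 40608 and 31840 in KO control and 19037, 18988 and 18788 in KO stimulated libraries. Control and stimulated libraries did not overlap in either genotype. Its rank score rose by 0.87 ± 0.06 (SE, adjusted p = 2.16e-07). A stronger region 27944 to 28034 bases into the gene (chr6:67347423-67349739) went from ranks of 10114, 9857 and 10652 to 6055, 6609 and 7190 in WT and from 9847, 11306 and 10378 to 7058, 5610 and 5581 in KO cells. This was a rise of 0.71 ± 0.10 (adjusted p = 8.6e-05). Its neighbour (chr6:67339187-67340346) went the other way, with ranks of 21248 to 26781 in the 6 control libraries. In stimulated cells it had either no deposited interval (3 libraries) or one with a rank of 38074 to 39003, below the reduced list. Its rank score fell by 0.54 ± 0.06 (adjusted p = 2.39e-05). A region nearer the start site (chr6:67366560-67368675), named after its values were seen, differed by 0.03 ± 0.11 (adjusted p = 0.817).

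Loss of Regnase-1 went with a higher rank at a region just inside Il12rb2 (chr6:67373049-67374293), with summits 2357 to 2583 bases downstream of the start site. Ranks were 28960, 34366 and 32693 in WT control and 36698, 35844 and 33568 in WT stimulated libraries, against 21048, 21052 and 22069 in KO control and 19037, 23278 and 23161 in KO stimulated libraries. All 6 KO libraries were above all 6 WT libraries, which held for 0.543% of all regions and for 1 other of the 58, upstream of the same gene. KO minus WT was 0.62 ± 0.07 (SE, adjusted p = 0.000613), and it passed in control (0.58, adjusted p = 0.00753) and in stimulated cells (0.67, adjusted p = 0.00186). It ranged from 0.58 to 0.66 when each library was left out in turn. An exact permutation test over libraries gave an adjusted p of 0.117. With all 6 KO above all 6 WT libraries this was the lowest value that test could give, so it cannot decide here.

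Resting KO cells also carried many weak intervals along the body of Il12rb2. Over the gene body, the full deposited lists held 11, 13 and 14 intervals in WT control, 25, 23 and 26 in KO control, 8, 10 and 10 in WT stimulated and 6, 9 and 11 in KO stimulated libraries. They covered 10.6 to 12 kb in WT control and 15.0 to 22.6 kb in KO control libraries. KO control libraries were above WT control libraries without overlap, which held for 1.93% of 15368 genes with an interval in a control library. In these full lists the mean difference of 12 intervals was larger than at any of the other genes, where the largest was 8.33. At the other 4 receptor genes the difference was 0.00 to 0.33 intervals. In the flanks of Il12rb2 outside the gene body, the numbers were 7 to 8 in WT control and 8 to 10 in KO control libraries. The stimulated lists held 55146 to 63128 intervals in WT and 35110, 42543 and 54303 in KO, so weak intervals could be missed in the shorter ones. The control lists were of like length, 42520 to 53440 intervals in WT and 46971 to 53258 in KO. Most of these intervals were weak: with the 6 control lists reduced to 42520 intervals, the counts were 11, 7 and 7 in WT and 10, 10 and 9 in KO, which overlapped, and 1.52% of genes had all 3 KO above all 3 WT control libraries. In the lists so reduced, the mean difference at Il12rb2 was 1.33 intervals, and 248 of 14832 genes had a larger one. The counts over gene bodies were chosen after the map of the gene was seen.

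**Figure D2:**
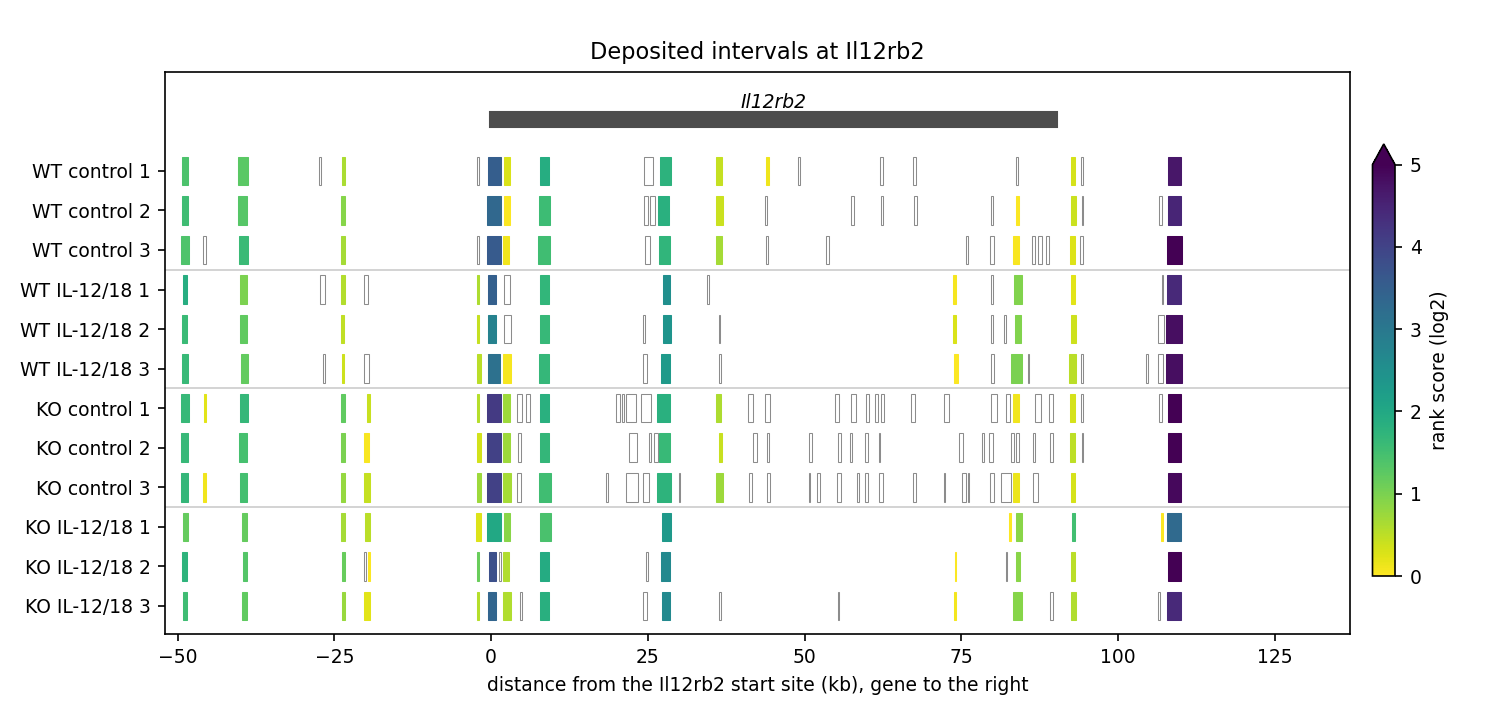
Deposited intervals of each of the 12 libraries (rows) by distance from the Il12rb2 start site (kb, x axis), oriented so that the gene, drawn as a grey bar, runs to the right. Colour gives the rank score (log2) of intervals in the reduced lists, and open boxes are weaker deposited intervals. The KO control rows hold 25, 23 and 26 intervals over the gene body, more than any other row, most of them open boxes.

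At the same gene, 5 stretches were deposited in 3 of 3 KO control and 0 of 3 WT control libraries, and no stretch near another receptor gene was. This pattern held for 0.960% of 66900 stretches joined from all deposited intervals. Of the 5, chr6:67315898-67316484 and chr6:67352689-67354676 were deposited in no other group. The stretches chr6:67320381-67321256 and chr6:67371255-67372063 were also in 1 KO stimulated library each. KO control ranks of these stretches inside the gene were 36483 to 50732, and the WT control lists held 42520, 48324 and 53440 intervals. Only chr6:67371255-67372063, at 36483 to 39551, ranked within all WT control lists. At the others, ranks passed the end of at least 1 WT control list, so their absence cannot decide on a difference between genotypes. The fifth lay upstream of the start site, between Il12rb2 and Il23r (chr6:67395428-67396447), and was deposited in 3 of 3 KO stimulated and 2 of 3 WT stimulated libraries. In the reduced lists it had ranks of 26278, 33870 and 25963 in KO control and 24440, 34262 and 30174 in KO stimulated libraries and none in WT, but KO minus WT did not pass the test (0.28 ± 0.08, adjusted p = 0.0648). It passed with all deposited intervals (0.99, adjusted p = 0.0013) and without KO control replicate 2 (0.34, adjusted p = 0.0259) or KO stimulated replicate 2 (0.34, adjusted p = 0.0266). Inside the gene, chr6:67331731-67332563 was deposited in 6 of 6 control and 0 of 6 stimulated libraries. Its control ranks were 32312 to 49948. The lists of KO stimulated replicates 1 and 2 held 35110 and 42543 intervals, so its absence there cannot decide on a loss. The WT stimulated lists, with 55146 to 63128 intervals, reached past these ranks. The share of all stretches with this pattern is not given here. Presence with stimulation only was seen at chr6:67301767-67302471. It was deposited in 0 of 6 control, 3 of 3 WT stimulated (ranks 33713, 28869 and 34520) and 2 of 3 KO stimulated libraries. Its stimulation difference did not pass the test (0.08 ± 0.04, adjusted p = 0.129). In the receptor windows, 7 stretches were deposited in 3 of 3 KO control and 0 of 3 KO stimulated libraries (4.18% of all stretches). Of these, 5 were nearest Il12rb2, 1 was nearest Serbp1 and 1 was in the window of Il12rb1. At each of the 7, at least 1 KO control rank passed the end of the list of KO stimulated replicate 1 (35110 intervals). At most of them, KO control ranks also passed that of replicate 2 (42543). Only the list of replicate 3 (54303) reached past all these ranks, so the pattern cannot decide on a loss with stimulation. One of the 7 stretches, chr6:67295474-67296695, was also deposited in 3 of 3 WT stimulated libraries, at ranks of 48194, 45184 and 44249. Presence in 3 of 3 WT stimulated and 0 of 3 KO stimulated libraries held for 4.21% of stretches. Such ranks lie beyond the end of the lists of KO stimulated replicates 1 and 2. Only replicate 3 could have shown the stretch, so the pattern cannot decide on a difference between genotypes.

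Just upstream of the Il12rb2 start site, chr6:67377828-67378612, named after its values were seen, was weakest in resting WT cells. WT control replicates 1 and 3 had ranks of 37532 and 38773, outside the reduced list, and replicate 2 had no interval. Ranks were 23018, 25822 and 24392 in WT stimulated, 23772, 27526 and 21248 in KO control and 29336, 15908 and 23859 in KO stimulated libraries. Every library of the other 3 groups was thus above every WT control library. The score rose with stimulation in WT by 0.53 (adjusted p = 0.0355), while neither stimulation over both genotypes (0.32 ± 0.13, adjusted p = 0.0552) nor genotype over both treatments (adjusted p = 0.143) passed.

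Il18r1 encodes the ligand-binding chain of the IL-18 receptor. RefSeq lists 3 start sites close together, and 1 promoter is shown because it holds a pair of STAT-type matches (TTCNNNGAA, capitals) that begin at -219 and -152 from the start site. The 300 bases are GRCm38.p6, chr1:40465756-40466055, plus strand, and an interval covered them in every library.
Il18r1: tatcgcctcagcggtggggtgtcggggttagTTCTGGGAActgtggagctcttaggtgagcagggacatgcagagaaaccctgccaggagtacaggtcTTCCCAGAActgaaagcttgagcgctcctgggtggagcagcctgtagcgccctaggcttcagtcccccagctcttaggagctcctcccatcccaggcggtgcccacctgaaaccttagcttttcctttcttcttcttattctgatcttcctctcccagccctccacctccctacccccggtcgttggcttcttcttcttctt
A single region of 5701 bp (chr1:40465353-40471053) covered all 3 start sites and the start of the gene body. Only the interval of WT stimulated replicate 2 spanned it. Every other library had an interval over the start sites and another farther inside. The interval over the start sites had ranks of 9404, 10506 and 10711 in WT control. In WT stimulated replicates 1 and 3 they were 6470 and 7684. In KO they were 13914, 12952 and 13542 in control and 10886, 13006 and 10187 in stimulated libraries. The strongest summit of this interval, which sets its rank, lay at chr1:40465655 to 40465747 in control libraries. In these stimulated libraries it lay at chr1:40467468 to 40467523, farther inside the gene. Control and stimulated ranks of this interval thus refer to different places. These WT ranks were above the KO ranks in each treatment, which was seen afterwards and not tested. Over the whole region, whichever interval was stronger, the best rank was 9404, 9226 and 9969 in WT control, 6470, 6773 and 6542 in WT stimulated, 10399, 10476 and 12118 in KO control and 3651, 9432 and 10187 in KO stimulated libraries. In WT the groups were apart. KO stimulated replicate 1 was far above its group through its interval farther inside, and the other KO stimulated libraries lay near the controls. The stimulation difference was 0.58 ± 0.21 (SE, adjusted p = 0.0382), and it lost its call without any 1 of the 9 libraries other than the KO stimulated ones, with adjusted p up to 0.0835 (without KO control replicate 3). Without KO stimulated replicate 1 it was 0.35. KO minus WT was -0.15 ± 0.21 (adjusted p = 0.736), and -0.39 (adjusted p = 0.00695) without KO stimulated replicate 1. The strongest summit was 3888 to 4097 bases inside the gene in 9 of 12 libraries and nearer the start sites in the other 3.

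Farther into Il18r1, 3 regions named after their values were seen did not move alike. At chr1:40473425-40474465, ranks of 14661, 20370 and 23592 in WT control became 26630, 24587 and 26330 in WT stimulated libraries. In KO cells, 20084, 24498 and 20034 became 30389 and 27368, with no interval in KO stimulated replicate 1. The 6 stimulated libraries were all below the 6 control libraries, and the score fell by 0.48 ± 0.12 (adjusted p = 0.00465). At chr1:40475369-40477280, the mean score went from 1.42 ± 0.36 to 0.87 ± 0.14 with stimulation in WT (SD, n = 3; adjusted p = 0.0448). In KO it was 1.04 ± 0.15 without and 1.05 ± 0.30 with stimulation, and the difference over both genotypes did not pass (-0.27, adjusted p = 0.127). At chr1:40479059-40480631, ranks in WT went from 11890, 13600 and 13965 to 15824, 16802 and 17066, whereas those in KO went from 12942, 12393 and 13440 to 8720, 9908 and 11838. WT libraries moved down with stimulation and KO libraries up, without overlap in either genotype. The score changed by -0.34 ± 0.13 in WT (adjusted p = 0.0692) and 0.36 ± 0.13 in KO (adjusted p = 0.0607), and the difference of these differences, 0.69 ± 0.19, did not pass the test (adjusted p = 0.112). In stimulated cells, KO minus WT was 0.72 ± 0.13 (adjusted p = 0.00835). A short stretch inside the gene (chr1:40481566-40482013) was deposited in 3 of 3 WT stimulated and 0 of 3 WT control libraries. At the far end of the gene (chr1:40500704-40503706), ranks were 3752 to 6184 in WT control, 8600 to 9815 in WT stimulated, 6176 to 7703 in KO control and 2792 to 8826 in KO stimulated libraries. Its stimulation difference of -0.27 ± 0.25 did not pass (adjusted p = 0.385), and without KO stimulated replicate 1 it was -0.52 (adjusted p = 0.00831).

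Il18rap encodes the accessory chain without which IL-18 does not signal. Its promoter is shown because the strongest summit lay in it in control cells and outside it in stimulated cells. The 300 bases are RefSeq, GRCm38.p6, chr1:40515112-40515411, plus strand. Capitals mark a RUNX-type match (TGTGGT, here on the opposite strand) that begins 32 bases after the start site, a motif present in 16.8% of promoters on either strand.
Il18rap: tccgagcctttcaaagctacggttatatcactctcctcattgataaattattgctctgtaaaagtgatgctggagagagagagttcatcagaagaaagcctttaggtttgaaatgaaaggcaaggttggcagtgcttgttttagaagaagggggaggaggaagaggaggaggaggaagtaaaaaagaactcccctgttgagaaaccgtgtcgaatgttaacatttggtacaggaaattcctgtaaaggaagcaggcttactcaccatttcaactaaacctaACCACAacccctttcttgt
The region over this start site (chr1:40513891-40517562) had ranks of 13962, 13684 and 14790 in WT control, 6194, 7992 and 6638 in WT stimulated, 16364, 15315 and 15942 in KO control and 2272, 6002 and 6416 in KO stimulated libraries. The 6 stimulated libraries were all above the 6 control libraries. Its rank score rose by 1.44 ± 0.22 (SE, adjusted p = 0.000163), 1.03 in WT (adjusted p = 0.019) and 1.84 in KO cells (adjusted p = 0.000733). The size in KO rested in part on KO stimulated replicate 1, without which the rise over both genotypes was 1.19. The difference between genotypes in this rise was 0.80 ± 0.43 (adjusted p = 0.457).

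The strongest summit of the Il18rap start-site region moved into the gene with stimulation. In control cells it lay at 17, 9 and -14 bases from the start site in WT and at -23, -23 and -3 bases in KO. In stimulated cells it lay at 1124, 1110 and 1120 bases in WT and at 991, 1097 and 1121 bases in KO. The 2 sets were 974 bases apart at their closest. Of 21020 regions called in all 12 libraries, 138 (0.657%) had stimulated and control summits at least 500 bases apart in this way. In the receptor windows this was the only one of 34 such regions. That count took the strongest summit of a whole region. The interval over the Il18r1 start sites also had its summit farther inside with stimulation, as given above. It was joined with the next interval into 1 region, so the count could not show it. At Il18rap, every list held a summit within 250 bases of the start site and one over 500 bases inside the gene. Their relative height within a library differed. Positions within these windows varied. The summits nearest the start site were at -170 and 220 bases in KO stimulated replicate 1, and the strongest inside ones of WT control were at 931, 653 and 793 bases. The deposited fold of the strongest summit over 500 bases inside the gene, divided by that of the strongest summit within 250 bases of the start site, was 0.706, 0.513 and 0.431 in WT control and 0.734, 0.534 and 0.578 in KO control libraries. It was 1.39, 1.14 and 1.2 in WT stimulated and 2.13, 1.3 and 1.24 in KO stimulated libraries. These folds are the authors' own and are set against each other only within a list. This ratio was chosen after the summit positions were seen.

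**Figure D3:**
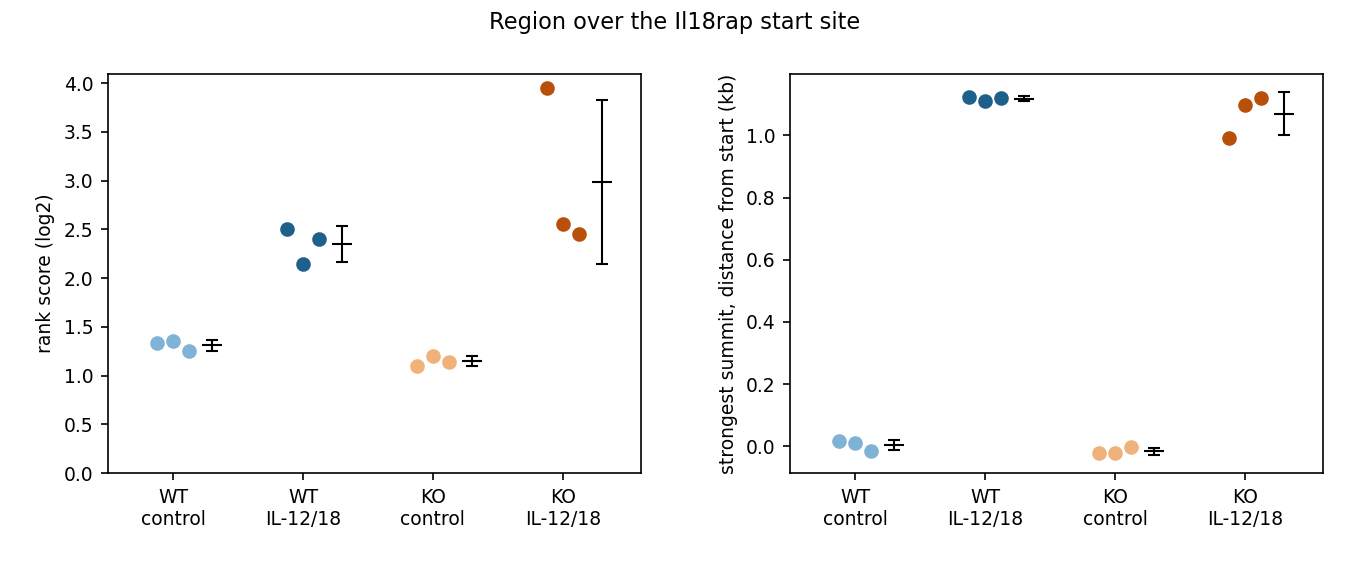
Rank score (log2, left) and distance of the strongest summit from the start site (kb, right) in the region over the Il18rap start, with 1 point per library and the mean ± SD (n = 3) beside each group. Stimulated libraries of both genotypes lie above control libraries, and their summits lie 991 to 1124 bases inside the gene.

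A second Il18rap region farther inside the gene (chr1:40522293-40525266) rose as well. Its ranks were 15633, 19970 and 19633 in WT control, 9648, 9046 and 8564 in WT stimulated, 22146, 20726 and 22069 in KO control and 10266, 12324 and 11612 in KO stimulated libraries. Control and stimulated libraries did not overlap, and the difference was 0.97 ± 0.09 (SE, adjusted p = 4.02e-06). The weaker regions in the rest of the gene, named after their values were seen, did not follow. At chr1:40530903-40532043 the score fell by 0.16 ± 0.06 over both genotypes (adjusted p = 0.0446). The difference there was -0.38 in WT (adjusted p = 0.00386) and 0.06 in KO (adjusted p = 0.636). At chr1:40550034-40550832 the score fell by 0.43 ± 0.09 (adjusted p = 0.00137). At chr1:40534001-40535133, stimulation gave 0.10 ± 0.08 (adjusted p = 0.311), while KO minus WT was -0.34 ± 0.08 (adjusted p = 0.0202). The ranks there were 22317 to 27310 in the 6 WT libraries. In KO they were 26436 to 38801 in 5 libraries, with no interval in KO stimulated replicate 2, so the genotypes overlapped.

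Il1rl1 had no deposited interval over either of its RefSeq promoters in any of the 12 libraries, although it had the most regions that rose. The promoter nearer to the region with the largest stimulation difference is shown for that absence. Its 300 bases are GRCm38.p6, chr1:40439379-40439678, plus strand, with a RUNX-type match in capitals that begins at -6 from the start site.
Il1rl1: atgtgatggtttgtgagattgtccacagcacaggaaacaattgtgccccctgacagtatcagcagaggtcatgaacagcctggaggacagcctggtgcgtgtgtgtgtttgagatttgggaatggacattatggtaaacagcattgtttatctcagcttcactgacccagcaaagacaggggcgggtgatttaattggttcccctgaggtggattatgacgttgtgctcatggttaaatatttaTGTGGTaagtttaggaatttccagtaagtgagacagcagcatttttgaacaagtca
Of its 6 regions, the one with the largest stimulation difference lay inside the gene (chr1:40444555-40445479), 5262 to 5397 bases downstream of that start site. Its ranks were 16269, 18006 and 14058 in WT control, 6055, 5403 and 7570 in WT stimulated, 15029, 17586 and 17857 in KO control and 9209, 9908 and 6994 in KO stimulated libraries. The groups were apart in both genotypes, with a rise of 1.16 ± 0.12 (SE, adjusted p = 1.07e-05). A strong region upstream of the gene body (chr1:40392651-40394845) went from 7969, 8798 and 8996 to 5048, 3604 and 4764 in WT and from 7914, 9496 and 7612 to 3410, 5610 and 3430 in KO cells. Its rise was 1.00 ± 0.15 (adjusted p = 0.000152). It lies 10019 bases from Il1rl1, with Il1rl2 as the next gene on the other side.

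A weaker region nearer the same start site (chr1:40441681-40442647, named after its values were seen) rose by 0.44 ± 0.12 (adjusted p = 0.00781).

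The part of Il1rl1 upstream of both promoter entries held 2 regions deposited in 6 of 6 stimulated and 0 of 6 control libraries. At chr1:40416910-40417609, ranks were 21320, 29775 and 28642 in WT stimulated and 24440, 24434 and 21839 in KO stimulated libraries, a difference of 0.50 ± 0.08 (SE, adjusted p = 0.00017). At chr1:40412457-40413465 they were 30564, 26847 and 34520 in WT and 16161, 22761 and 22153 in KO stimulated libraries, a difference of 0.50 ± 0.09 (adjusted p = 0.000416). The 3 KO stimulated libraries were above the 3 WT stimulated ones at the latter, with KO minus WT in stimulated cells at 0.60 ± 0.12 (adjusted p = 0.0128). The difference of the stimulation effects there did not pass (0.60 ± 0.17, adjusted p = 0.133). Between genotypes over both treatments it was 0.30 ± 0.09 (adjusted p = 0.0573), with adjusted p from 0.0277 to 0.138 as libraries were left out. Presence in all 3 stimulated and no control library held for 10.9% of stretches in WT and for 2.11% in KO. Beside these values stand the markers of type 2 innate lymphocytes, cells known for ST2. All 6 marker genes had regions, and 13 of their 32 regions rose with stimulation and 7 fell (22.0% and 26.4% of all regions). At Rora 7 of 15 regions rose and 3 fell, at Klrg1 4 of 6 rose and 0 fell, and at Gata3 2 of 6 rose and 2 fell. No region rose at Il5, Il13 or Areg, and 1 fell at each of Il13 and Areg. Of the 32, 26 to 28 were called in WT control, 29 to 31 in WT stimulated, 25 to 27 in KO control and 29 to 31 in KO stimulated libraries. Of 3 regulatory T cell markers, Ctla4 had 9 regions, Ikzf4 had 4 and Foxp3 had none, and 3 of the 13 rose and 2 fell. Of 6 mast cell and basophil markers, Kit had 10 regions, Gata2 had 3, Cpa3 and Mcpt8 had 1 each and Fcer1a and Ms4a2 had none, and 1 of the 15 rose and 4 fell. The part of such cells in the result was not tested.

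**Figure D4:**
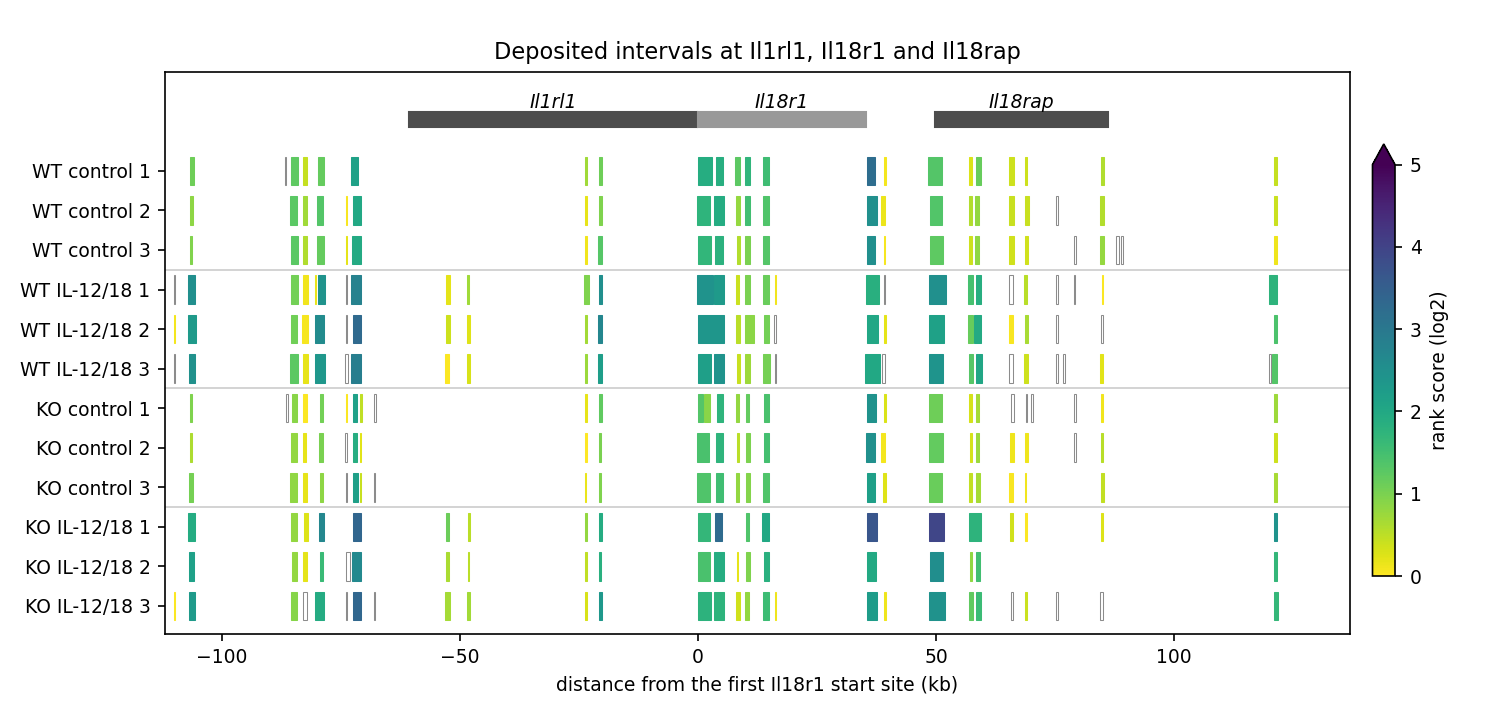
Deposited intervals of each of the 12 libraries (rows) by distance from the first Il18r1 start site (kb, x axis), with the gene bodies as grey bars. Colour gives the rank score (log2) of intervals in the reduced lists, and open boxes are weaker deposited intervals. The pair of bars near the left end of Il1rl1 is present in the 6 stimulated rows only, and the interval at the left end of Il18rap is darker there.

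Of the 29 regions nearest another gene, 4 rose and 6 fell with stimulation, where 22.0% and 26.4% of all regions did. The largest changes were a rise of 1.36 ± 0.11 at Il1rl2 (chr1:40358419-40359960, adjusted p = 1.08e-06), which encodes the IL-36 receptor, and a rise of 1.26 ± 0.15 at Slc9a4 (chr1:40585544-40587514), a sodium-proton exchanger gene beyond Il18rap. Near Il12rb1, falls of 1.17 ± 0.30 at Mast3 (chr8:70790563-70793584) and 1.10 ± 0.12 at Kcnn1 (chr8:70853166-70854823) passed the test. The window of Il12rb1 holds 8 other genes, and those of Il1rl1, Il18r1 and Il18rap overlap each other, so values summed over a window are shared between neighbours.

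Genotype changed few receptor regions. Over both treatments, 2 of the 58 regions were higher and 2 lower in KO than in WT, where 2.51% and 4.64% of all regions were. The higher ones were those described in Il12rb2 and in Il18r1 (chr1:40479059-40480631, 0.37 ± 0.09, adjusted p = 0.0367). The lower ones were that described in Il18rap and one near Il1rl2 (chr1:40379758-40381482, -0.36 ± 0.07, adjusted p = 0.0124). Beside this, of the 54 regions at NK marker genes, 9 were lower and 0 higher in KO, and their part in the result was not tested. In control cells alone 1 of the 58 was higher and 1 lower (0.872% and 1.91% of all regions), and in stimulated cells 3 were higher and 0 lower (2.21% and 4.17%). Without KO stimulated replicate 1 the counts over both treatments were 6 higher and 7 lower. Over all 44960 regions, that setting gave 2430 higher and 3240 lower, against 1128 and 2087 with all libraries. Without KO stimulated replicate 3 there were 4 higher, and 1625 over all regions. By exact permutation tests over libraries there were 0, among the 58 as among all regions. The difference between genotypes in the stimulation effect passed at 0 of the 58 regions in limma (1.44% of all regions). Of the 58, 6 had an unadjusted p under 0.05, as had 5838 of all 44960 regions.

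The length covered by reduced-list intervals within 50 kb of a gene gave a second measure. With stimulation, Il1rl1 gained 3.99 ± 0.79 kb (SE, limma over 17652 genes, adjusted p = 0.00233) and Il12rb1 lost coverage, at -5.31 ± 1.31 kb (adjusted p = 0.0083), while 11.8% of all genes gained and 21.0% lost. With all deposited intervals the loss at Il12rb1 did not pass (-5.26 kb, adjusted p = 0.0657). The window of Il1rl1 was covered over 18.0, 20.1 and 18.8 kb in WT control, 23.2, 24.2 and 23.5 kb in WT stimulated, 14.8, 15.4 and 16.9 kb in KO control and 18.0, 17.5 and 21.3 kb in KO stimulated libraries. Il12rb2 (-2.02 kb, adjusted p = 0.0739), Il18r1 (1.76 kb, adjusted p = 0.0976) and Il18rap (1.26 kb, adjusted p = 0.225) did not pass. Il12rb2 passed with all deposited intervals (-7.96 kb, adjusted p = 0.00141), and without WT stimulated replicate 3 (-2.58 kb, adjusted p = 0.0221) or KO stimulated replicate 1 (-2.50 kb, adjusted p = 0.0351). Lists of 0.5 times the length gave 3.56 kb at Il18r1 (adjusted p = 0.00132) and 4.18 kb at Il18rap (adjusted p = 0.000916), and Il18r1 also passed without KO stimulated replicate 2 (2.35 kb, adjusted p = 0.0219). KO cells had less coverage than WT at the chromosome 1 genes, with -3.98 ± 0.79 kb at Il1rl1 (adjusted p = 0.0105), -3.46 ± 0.77 kb at Il18r1 (adjusted p = 0.0169) and -3.27 ± 0.76 kb at Il18rap (adjusted p = 0.0194). Of all genes, 13.0% had less coverage in KO and 0.782% more. These 3 windows share most of their intervals and are not independent. With flanks of 20 kb the difference was -1.91 kb at Il18r1 (adjusted p = 0.0555) and -1.55 kb at Il18rap (adjusted p = 0.106), and neither passed. By the exact permutation test none of the 3 passed (adjusted p = 0.0677 each). All KO libraries were below all WT libraries within each treatment at these genes, so this was the lowest value that test could give. It cannot decide on these differences. In limma, Il18rap did not pass without KO control replicate 1 (adjusted p = 0.053) or WT control replicate 2 (adjusted p = 0.0526). Over the genome the reduced lists covered 39.1, 43.2 and 45.9 Mb in WT control and 39.4, 40 and 40.8 Mb in KO control libraries, which overlap. In stimulated libraries they covered 42.3, 43.6 and 47.3 Mb in WT and 36.4, 35.6 and 41.2 Mb in KO, without overlap. The median KO minus WT difference in covered length over all genes was -0.53 kb. The part of this in the result was not tested.

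**Figure D5:**
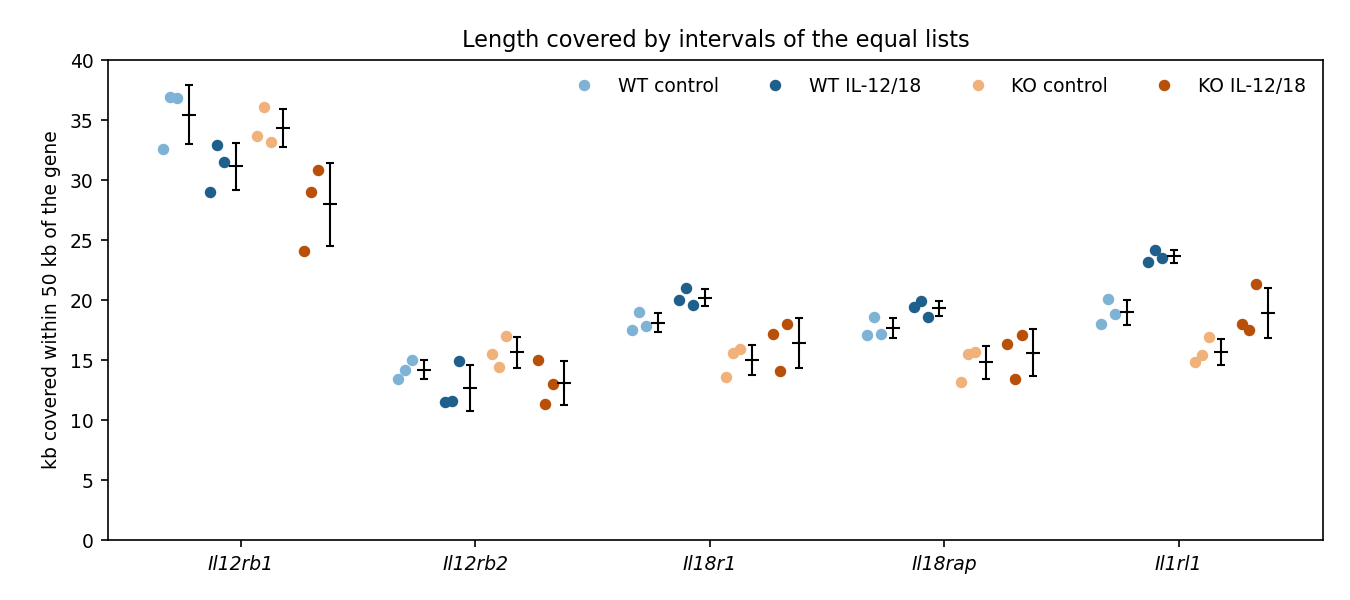
Kilobases covered by reduced-list intervals within 50 kb of each receptor gene (y axis, from 0), with 1 point per library, coloured by group, and the mean ± SD (n = 3) beside it. At Il1rl1 the WT stimulated libraries, at 23.2 to 24.2 kb, lie above all others.

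The genes whose mean rank score over their regions was most like that of each receptor were taken from 5279 genes with at least 3 regions, by Pearson r over the 12 libraries, as a description. All points share their library and its list. Il1rl1 was most like Pbp2 (r = 0.987), Ceacam15 (0.986) and Gosr2 (0.984). Il18rap was most like Itga4 (r = 0.960), Spatc1 (0.958) and Txk (0.954). Il18r1 was most like Ostc (r = 0.949), Cdc25a (0.945) and 1700057G04Rik (0.942), and Il12rb2 most like Klc1 (r = 0.939), Pcbd1 (0.9) and Zfp469 (0.894). Il12rb1, with 2 regions, was not compared.

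Genes of the same pathways were read from pathway lists in the same fit, where 22.0% of all regions rose and 26.4% fell with stimulation and 2.51% were higher and 4.64% lower in KO. Of 56 regions at 11 genes of IL-12 receptor signalling, 20 rose and 14 fell with stimulation (median 0.11), and 2 were higher and 3 lower in KO. The largest rise was at Jak2, the kinase bound by IL-12Rβ2 (2.65 ± 0.09, adjusted p = 1.88e-08). Stat4, the main IL-12 signal transducer, had 4 regions that rose and 2 that fell of 12 (largest 1.89 ± 0.15, adjusted p = 8.26e-07). All 3 regions of Ptpn6, a phosphatase that limits cytokine signals, fell (largest -1.28 ± 0.10, adjusted p = 6.79e-07). Of 93 regions at 18 genes of IL-18 receptor signalling, 34 rose and 23 fell (median 0.05), and 5 were higher and 5 lower in KO. At Nfkbia, the inhibitor induced by NF-kB, 2 of 5 regions rose and 1 fell (largest 2.07 ± 0.18, adjusted p = 1.77e-06). At Irak3, the inhibitory member of the IRAK family, 5 of 8 regions were higher in KO, the largest by 1.37 (adjusted p = 0.000594), and these were all the regions of the list that were higher in KO. Of 16 regions at the other IL-1 receptor family genes, 5 rose and 4 fell. Of 30 regions at the other receptors of the IL-12 and gp130 family, 5 rose and 11 fell, and 4 were lower in KO, 2 at Il6ra and 2 at Il21r. Of 15 regions at the ligand genes, 5 rose and 1 fell, with Il33 the largest (1.54 ± 0.11, adjusted p = 5.6e-07), and the 2 regions higher in KO were both at Il27.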

How the data were processed

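The authors called peaks in each of 12 ATAC-seq libraries separately and deposited 1 narrowPeak list each. The submitters' processing notes name mm10, MACS2 2.1.1.20160309, Bowtie2 2.3.4.1, cutadapt 4.1 and SAMtools 1.15.1, and also FastQC 0.11.9 and deepTools 3.4.2. Settings, and any shift of reads for the cut of the enzyme, are not given in the sources used here. Per the file columns, the deposited fold is a ratio of a peak's pileup to its own library's background, and the deposited −log10 q is that of the single peak, as is the −log10 p. They served only to rank peaks within a list. Read depth is unknown. The offset of the summit and the position are as deposited, and the score column was not used.

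Summits sharing an interval were counted as 1 interval with its strongest summit, tied values got their mean rank, and chromosomes 1 to 19, X and Y were kept. Equal lists held ranks up to 35110, and regions were joined at 1 bp or more of overlap and kept if at least 2 libraries called them. Rank scores were compared in 1 fit over 4 groups with limma 3.58.1 (R 4.3.3, variance trend, no covariates, threshold 0.05 after Benjamini-Hochberg adjustment), tested on simulated data first. Alternatives were other list lengths, region rules, flanks, exact permutation tests over libraries, a replicate block and each library left out. Gene positions and promoter sequences are RefSeq, GRCm38.p6; 4 of the 5 genes have a promoter entry. Regions named were those at gene ends, the 12 largest past the test among those nearest a receptor and those in all libraries of 1 group and none of another; others are said to be named after seeing values. The likeness and pathway lists, the members and all rules were chosen with earlier results of these data known. Tables used Python 3.11.15, pandas 2.3.3 and numpy 2.4.6.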

Additional observations from a re-analysis of the deposited data

How the results depend on the processing

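The 12 libraries and their list lengths set what can be seen: depth is unknown, regions near the end of a list can be missed, and calls of genotype rest on few libraries. Of the counts over the 58 regions, the 14 that rose with stimulation were 3 when regions were scored as called or not called, and the 12 that fell were 6 with shorter lists (0.5 of the length), 21 with all deposited intervals and 1 as called or not called. Scored as called or not called, only 8819 of all 44960 regions could be tested for stimulation. Of the 58, 34 were called in all 12 libraries and could not pass that way. The 23 changed in WT were 12 with shorter lists and 15 when calls had to cover 50% of a region, and the 18 changed in KO were 28 with all deposited intervals and 10 with 50% cover. Of genotype calls, the 2 higher in KO were 1 with shorter lists, 6 with all deposited intervals, 1 with 50% cover and 0 by either exact permutation test; the 2 lower were 1 with shorter lists, with all deposited intervals and with 20 kb flanks, 5 with windows around summits and 0 by either exact test. The exact tests called 0 regions genome-wide for genotype, with 5952 regions at an unadjusted p under 0.05 on rank scores and 231 as called or not called; limma called 1128 higher and 2087 lower. In control cells the 2 calls were 1 with shorter lists or 20 kb flanks, 6 with all deposited intervals and 5 with summit windows. In stimulated cells the 3 were 1 with shorter lists and 5 without a variance trend. The 0 calls of a genotype difference in the response were 2 with summit windows and 1 with 50% cover. For covered length, the 2 genes changed by stimulation were 4 with shorter lists, and the 3 changed by genotype were 0 by the exact test and 1 with 20 kb flanks. The exact test could not have passed these 3 genes, which were at its lowest possible p-value. The cause of these moves was not tested. Leaving out each library in turn gave 13 to 16 risen, 9 to 16 fallen, 19 to 31 in WT, 15 to 21 in KO, 1 to 6 higher and 1 to 7 lower in KO, 1 to 5 in control and 2 to 6 in stimulated cells, 0 to 2 for the genotype difference in the response, and 2 to 3 genes for either covered length. The largest of the genotype counts came without KO stimulated replicate 1 (6 higher, 7 lower, 5 in control) or 3 (6 in stimulated, 2 for the difference in the response). Counts over all regions rose too, to 2430 higher and 3240 lower for genotype without replicate 1. Without replicate 3 they were 676 higher and 955 lower for the difference in the response. Ranking by fold gave the same ranks as ranking by −log10 q. All deposited intervals changed the share of higher among regions called for that difference from 51.5% to 16.6%. No value changed direction among those that had passed. With the replicate number as a block, the counts of regions over the genome were 10023 higher and 12226 lower for stimulation against 9883 and 11890 without it, and 170 and 179 against 334 and 315 for the difference in the response, while for the members the replicate block gave 14 and 12 for stimulation, 23 in WT and 20 in KO, 3 higher and 2 lower for genotype, 2 in control and 3 in stimulated cells, and 0 for the difference in the response. With the block the fall at the Il12rb2 start site was no longer called (adjusted p = 0.0567), while KO minus WT at chr6:67395428-67396433 (adjusted p = 0.0431) and the stimulation loss of coverage at Il12rb2 (-2.02 kb, adjusted p = 0.0327) were. Same-numbered libraries of different groups deviated together at r from 0.00027 to 0.482 over 18 pairs, 11 of them over 0.1, and all 12 libraries were on average closest to their own number, so the numbers may mark a shared step but are not known to pair the samples.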
